A study of Mus musculus with 576 samples.

Results

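The 10 genes described here are Foxo1, Foxo3, Foxo4, Txnip, Btg1, Btg2, Tob1, Ccng2, Klf2 and Klf6, a set of FOXO transcription factors and of genes known for slowing proliferation. They were taken by gene symbol from the deposited table of 49466 genes, and each symbol was found. The cells came from embryonic day 14.5 C57/Bl6J mouse fetal liver. Cells bearing mature lineage antigens, Sca-1, CD16/32 or CD41 were removed, and sorting on CD117, CD71 and CD24 then enriched burst-forming unit-erythroid (BFU-E) progenitors, the early committed cells of the red lineage. The tested cultures held dexamethasone, a synthetic glucocorticoid, at 100 nM for 24, 48 or 72 hours (days 1, 2 and 3). The control cultures were kept for the same times without it. All cultures shared the serum-free medium SFEM2, to which 100 ng/mL of stem cell factor, 40 ng/mL of IGF1 (insulin-like growth factor 1) and 2 U/mL of erythropoietin were added. Polyadenylated RNA of single cells was sequenced on 6 plates of 96 wells, 1 plate for each day and treatment.

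FOXO factors are transcription factors held out of the nucleus by the kinase AKT, which receptors for stem cell factor, insulin-like growth factor 1 and erythropoietin activate. When AKT activity drops they enter the nucleus and switch on genes for cell cycle arrest and protection from oxidative stress, and Foxo3 is the member best known for a role in the maturation of red cell precursors. Txnip binds and inhibits thioredoxin and limits glucose uptake, Btg1, Btg2 and Tob1 are related proteins that recruit the deadenylase complex to messenger RNA, Ccng2 is a cyclin linked to cell cycle arrest, and Klf2 and Klf6 are zinc finger transcription factors.

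After filtering, the plates of days 1, 2 and 3 held 94, 92 and 94 cells with dexamethasone and 94, 96 and 93 cells in control. Cells held a median of 1092431 counts, and the plate sums on tested genes lay between 100181043 and 115750771 with dexamethasone and between 88158683 and 116554686 in control. The median number of genes with a count per cell was 8520.5 to 8923.5 on the dexamethasone plates and 6961 to 8119 on the control plates. All 96 index pairs were used on every plate. The 10 erythroid progenitor markers all had counts on every plate and summed to 2566 to 3699 CPM (counts scaled to library size) with dexamethasone and 2988 to 7396 CPM in control. The highest on every plate was Tfrc, also a late erythroid list gene, which was lower with dexamethasone on each day, as were Gata1, Klf1 and Gfi1b. Kit and Gata2 were higher with dexamethasone on each day. Kit held 489, 738 and 279 scaled CPM on days 1, 2 and 3 with dexamethasone and 314, 139 and 49.5 in control. Epor, Tal1, Zfpm1 and Nfe2 had no common direction over the days. Late erythroid genes summed to 3343, 5685 and 14249 CPM on the dexamethasone plates of days 1, 2 and 3, against 4414, 24308 and 38886 CPM on the control plates. The 13 neutrophil and monocyte markers did not follow the groups. They summed to 338, 552 and 601 CPM with dexamethasone and to 1389, 3.64 and 1875 CPM in control, where day 2 lacked Elane, Ctsg, Lyz2 and S100a8 among its 9 markers at 0. Cells with counts of 2 or more of these markers numbered 27, 30 and 42 with dexamethasone and 48, 0 and 58 in control, so the larger shifts without these cells are given beside the results. Mast cell and basophil markers reached 859 CPM on the dexamethasone plate of day 2 and at most 56.1 CPM elsewhere. Most of that sum came from Hdc at 692 and Cpa3 at 107 scaled CPM, while Prss34, Tpsab1 and Fcer1a stood at 0 there. Megakaryocyte markers summed to 541 to 990 CPM with dexamethasone and 216 to 577 CPM in control. Macrophage markers stayed at or under 16.8 CPM with C1qa, C1qb and C1qc at 0 on all plates. Lymphoid markers stayed at or under 17.3 CPM, and hepatocyte markers at or under 63.99 CPM with Ttr and Serpina1a at 0 on all plates.

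The comparison of dexamethasone with control asked how a glucocorticoid alters erythroid progenitors in culture. On each of the 3 days Btg2 and Foxo3 were lower and Txnip was higher with dexamethasone than in control. These are 3 of 9 genes with 1 direction on all days, near the 35.2% of all tested genes that had one. Over the 3 days the log2 fold change was -1.39 for Btg2 (SE 0.14), -0.74 for Foxo3 (SE 0.18) and 1.06 for Txnip (SE 0.25), from 3 plates for each treatment. In all, 9 of the 10 genes could be tested and Klf2 was too low, with 3 positive and 6 negative log2 fold changes. The median of the 9 was -0.38, beside 0.07 for all 20040 tested genes. The quasi-likelihood test of edgeR with Benjamini-Hochberg adjustment over all tested genes called 0 of the 9, where it called 0% of all genes and its smallest adjusted p was 0.457. At an unadjusted p under 0.05 it held 3 of the 9, beside 10.3% of all genes. DESeq2 called Btg2 and Foxo3 lower and Txnip higher, where it called 6.28% of all genes, 2.5% as higher and 3.78% as lower. The edgeR test restricted to genes with a mean of at least 50 CPM held 4 of the 10 and called Btg2 lower, where it called 0.878% of its 4326 genes, 0.416% as higher and 0.462% as lower. The labels name no separate animal or culture for a plate, so the p-values reflect how far these 6 plates scatter, which may be technical scatter. A plate effect and a dexamethasone difference that varies by day cannot be told apart here.

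**Figure D1:**
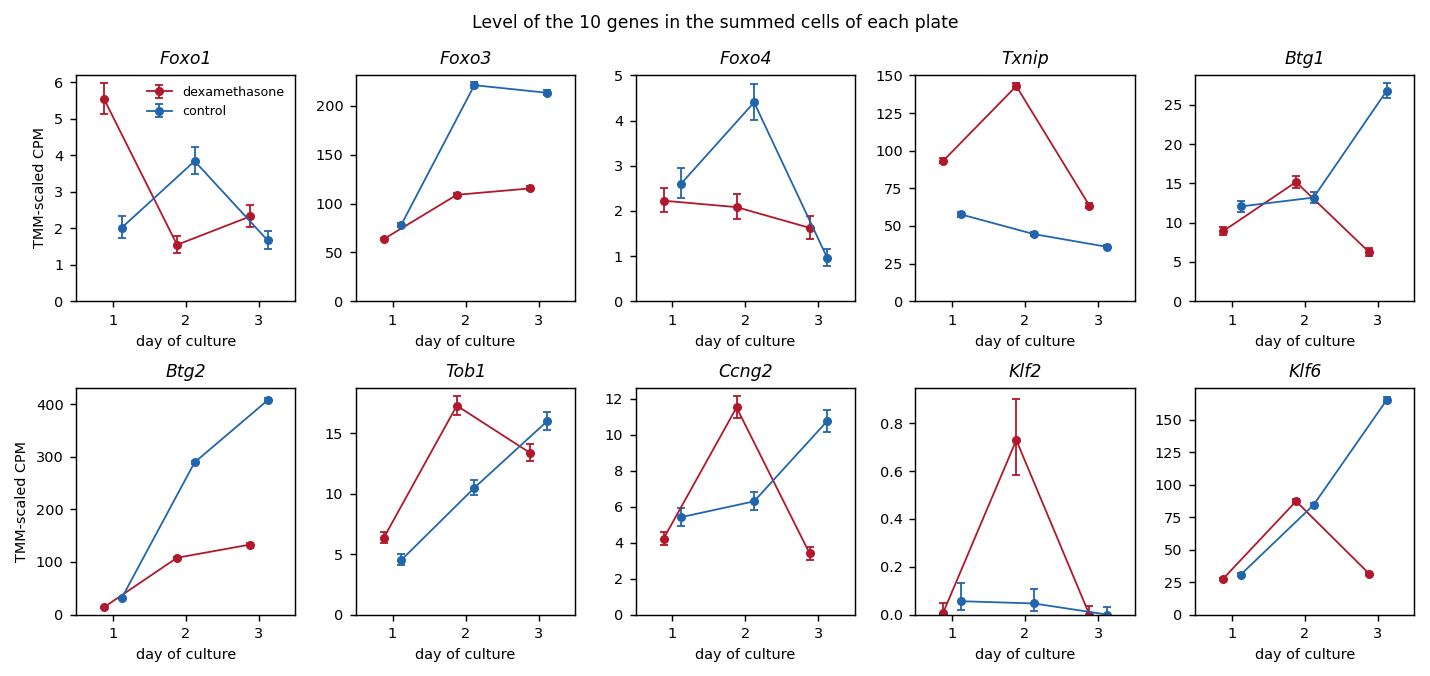
Level of each of the 10 genes as TMM-scaled CPM (vertical axis, linear, own scale for each gene) against day of culture, with 1 point for the summed cells of each plate, dexamethasone in red and control in blue. Bars are exact Poisson 95% intervals and cover counting error only; Txnip is the gene whose dexamethasone plates all lie above its control plates, and Btg2 stands at 133 with dexamethasone and 408 in control on day 3.

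Foxo3 lies on the minus strand of chromosome 10 (chr10:42181841-42276755, GRCm38), and it was the FOXO gene with the highest level per length on every plate. Its level was 63.6, 109 and 115 TMM-scaled CPM on days 1, 2 and 3 with dexamethasone, against 78.3, 221 and 213 in control. It was lower with dexamethasone on each day, although day 2 and day 3 with dexamethasone lay above day 1 in control, so the plates of the treatments overlap. The log2 ratio of dexamethasone to control was -0.30, -1.02 and -0.89 on days 1, 2 and 3, and -0.39, -0.96 and -0.69 without the cells that carry neutrophil or monocyte markers. The adjusted p over the 3 days was 0.457 in edgeR (rank 620 of 20040 genes by p), 0.0122 in DESeq2 and 0.107 in edgeR among genes of at least 50 CPM. Foxo3 had a count in 100%, 100% and 97.9% of cells with dexamethasone and in 100% of control cells on each day. The difference thus lay in the amount per cell. The median cell held 53.7, 99.6 and 92.5 CPM on days 1, 2 and 3 with dexamethasone and 72.6, 165 and 135 CPM in control.

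Foxo1, on the plus strand of chromosome 3 (chr3:52268336-52353221), and Foxo4, on the plus strand of chromosome X (chrX:101254528-101260873), were sparse, although both encode factors of the same family. Foxo1 held 5.54, 1.55 and 2.32 scaled CPM on days 1, 2 and 3 with dexamethasone and 2.01, 3.84 and 1.67 in control. Foxo4 held 2.23, 2.08 and 1.63 with dexamethasone and 2.60, 4.41 and 0.963 in control. Neither gene kept 1 direction over the days, and their log2 fold changes of 0.23 (SE 0.72) for Foxo1 and -0.19 (SE 0.57) for Foxo4 were smaller than their errors. Without the cells that carry neutrophil or monocyte markers Foxo4 was lower with dexamethasone on each day, at log2 ratios of -0.31, -1.26 and -1.14, with -0.91 over the 3 days (adjusted p 0.639 in edgeR). Foxo1 without them had 1.91, -1.67 and -1.17, with -0.40 over the 3 days (adjusted p 0.936 in edgeR). Cells with a Foxo1 count made up 23.4%, 14.1% and 9.57% of the dexamethasone plates and 12.8%, 12.5% and 6.45% of the control plates. On the control plate of day 3 a single cell gave 72.7% of the Foxo1 counts, and on that of day 2 a single cell gave 51.2%, so the levels of those plates rest on them. Foxo4 had a count in 20.7% to 28.7% of cells with dexamethasone and in 21.5% to 30.2% of control cells. The Foxo1 gene overlaps the antisense gene Gm20402 over 674 exonic bases, and the strand setting of the counting is not given in the sources used here, so reads over those bases cannot be told apart.

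Txnip, itself a known FOXO target in mammals, lies on the plus strand of chromosome 3 (chr3:96557957-96561883). It was the 1 gene of the 9 whose dexamethasone plates all lay above the control plates, at 93.3, 143 and 63.5 scaled CPM on days 1, 2 and 3, against 57.7, 44.6 and 36.1 in control. Among all tested genes 12.6% had plates of the treatments that did not overlap, 7.14% with dexamethasone higher, so 1 of 9 is near the background. The log2 ratio was 0.69, 1.68 and 0.81 on days 1, 2 and 3. The adjusted p was 0.457 in edgeR (rank 461 of 20040), 0.00392 in DESeq2 and 0.0788 in edgeR among genes of at least 50 CPM. Without the cells that carry neutrophil or monocyte markers the log2 fold change over the 3 days was 1.80 (adjusted p 0.419 in edgeR) and the ratio of day 3 was 3.04, since the control cells left on that day averaged 5.71 CPM of Txnip, against 48.3 CPM in the dexamethasone cells left. Cells with those markers held 84.6 CPM on day 3 with dexamethasone and 52.3 CPM in control. One cell gave 23.8% of all Txnip counts of the control plate of day 3.

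Txnip was also counted in a larger share of cells on each dexamethasone plate than on the control plate of its day. Cells with a count made up 91.5%, 93.5% and 77.7% of the dexamethasone plates of days 1, 2 and 3, against 69.1%, 51.04% and 32.3% of the control plates. The exact 95% intervals on day 3 were 67.9% to 85.6% with dexamethasone and 22.9% to 42.7% in control. Such intervals cover the counting of cells within 1 plate, and since each share comes from a single plate, no difference in shares between the treatments was tested. After thinning every cell to 620000 counts the shares were 91.1%, 89.8% and 72.9% with dexamethasone and 67.1%, 46.2% and 28.1% in control. The median control cell held 39.05, 0.521 and 0 CPM on days 1, 2 and 3, against 63.5, 101 and 27.4 CPM for the median cell with dexamethasone. Control cells with a Txnip count held a median of 67.2 CPM on day 2 and 7.10 CPM on day 3. On day 3 the upper quartile of all control cells was 0.864 CPM, so most cells held little or none. The Txnip gene overlaps the antisense gene Gm15441 over 606 exonic bases, whose reads cannot be told apart from its own for the reason given for Foxo1.

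**Figure D2:**
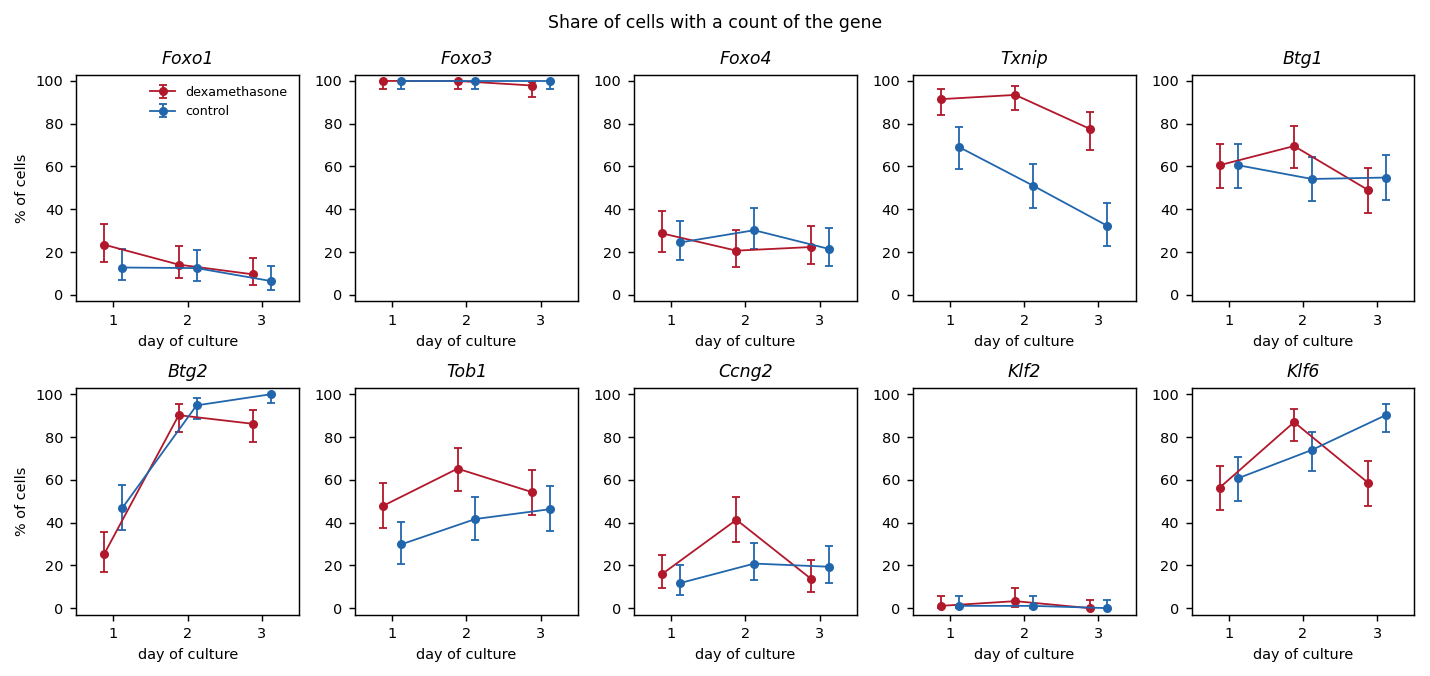
Share of cells with a count of each gene (vertical axis, percent of kept cells) against day of culture, dexamethasone in red and control in blue, with exact Clopper-Pearson 95% intervals that cover counting error only. The treatments lie farthest apart for Txnip, at 77.7% with dexamethasone and 32.3% in control on day 3, while Foxo3 was counted in nearly every cell.

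The 250 bases before the start of 9 of the 10 genes were read from RefSeq for GRCm38.p6. The FOXO binding letters GTAAACA stood, on either strand, in the windows of Txnip and Btg1, beside 3.09% of 27025 promoters. Both are shown for that reason, and Btg2 because its level differed most. Capitals mark the FOXO letters, which read TGTTTAC in Btg1 as they lie on the other strand, and the Btg2 window does not hold them. Each is written 5′ to 3′ on the strand of its gene, from chr3:96557707-96557956 (plus strand) for Txnip, chr10:96616751-96617000 (plus strand) for Btg1 and chr1:134079156-134079405 (minus strand) for Btg2.
Txnip: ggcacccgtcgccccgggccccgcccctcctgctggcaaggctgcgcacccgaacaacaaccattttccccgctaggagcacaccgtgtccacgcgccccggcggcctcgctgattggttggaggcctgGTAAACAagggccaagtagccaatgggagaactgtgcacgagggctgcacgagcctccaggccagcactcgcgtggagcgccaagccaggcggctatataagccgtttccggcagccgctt
Btg1: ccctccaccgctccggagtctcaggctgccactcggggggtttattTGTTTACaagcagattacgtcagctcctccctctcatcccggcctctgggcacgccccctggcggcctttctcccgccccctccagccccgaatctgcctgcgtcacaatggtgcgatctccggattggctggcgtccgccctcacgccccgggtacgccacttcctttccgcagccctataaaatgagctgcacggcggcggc
Btg2: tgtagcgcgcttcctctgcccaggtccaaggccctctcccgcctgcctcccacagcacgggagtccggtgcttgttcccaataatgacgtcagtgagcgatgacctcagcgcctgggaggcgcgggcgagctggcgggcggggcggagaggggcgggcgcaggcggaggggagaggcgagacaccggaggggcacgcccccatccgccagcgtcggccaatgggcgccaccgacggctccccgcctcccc
The FOXO letters span bases -121 to -115 before the start of Txnip and bases -204 to -198 before that of Btg1. The E-box CACGTG stood in the Klf6 window alone, at bases -43 to -38, beside 6.05% of all promoters. The glucocorticoid receptor half-site AGAACA, the GATA letters AGATAA and the CACCC box CCACACC stood in 0 of the 9 windows, beside 16.2%, 10.3% and 6.58% of all promoters. The 9 windows held 56% to 76.4% G and C, against a median of 52% over all promoters. The shares over all promoters were not matched for this, and 9 windows are few. Txnip was higher with dexamethasone on each day and Btg1 on day 2 alone. Whether FOXO factors bind either window was not tested.

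Btg2, on the minus strand of chromosome 1 (chr1:134075170-134079120), encodes an antiproliferative protein also known as a target of p53. Its level was 13.9, 108.0 and 133 scaled CPM on days 1, 2 and 3 with dexamethasone, against 30.8, 289 and 408 in control. It was lower with dexamethasone on each day, with log2 ratios of -1.14, -1.42 and -1.61, yet later dexamethasone plates exceeded the control plate of day 1. Its p ranked 12 of 20040 for dexamethasone, with an adjusted p of 0.457 in edgeR, 1.38e-12 in DESeq2 and 0.0243 in edgeR among genes of at least 50 CPM. Without cells that carry neutrophil or monocyte markers the ratios were -0.67, -1.45 and -1.72, so the ratio of day 1 was smaller without them. On day 1 those cells held 32.2 CPM of Btg2 with dexamethasone and 50.1 CPM in control, where the other cells held 8.61 and 13.3 CPM. Cells with a count made up 25.5%, 90.2% and 86.2% of the dexamethasone plates of days 1, 2 and 3 and 46.8%, 94.8% and 100% of the control plates. From day 2 on, most cells of either treatment thus held Btg2, and the median cell held 70.2 and 69.6 CPM on days 2 and 3 with dexamethasone, against 179 and 317 CPM in control.

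**Figure D3:**
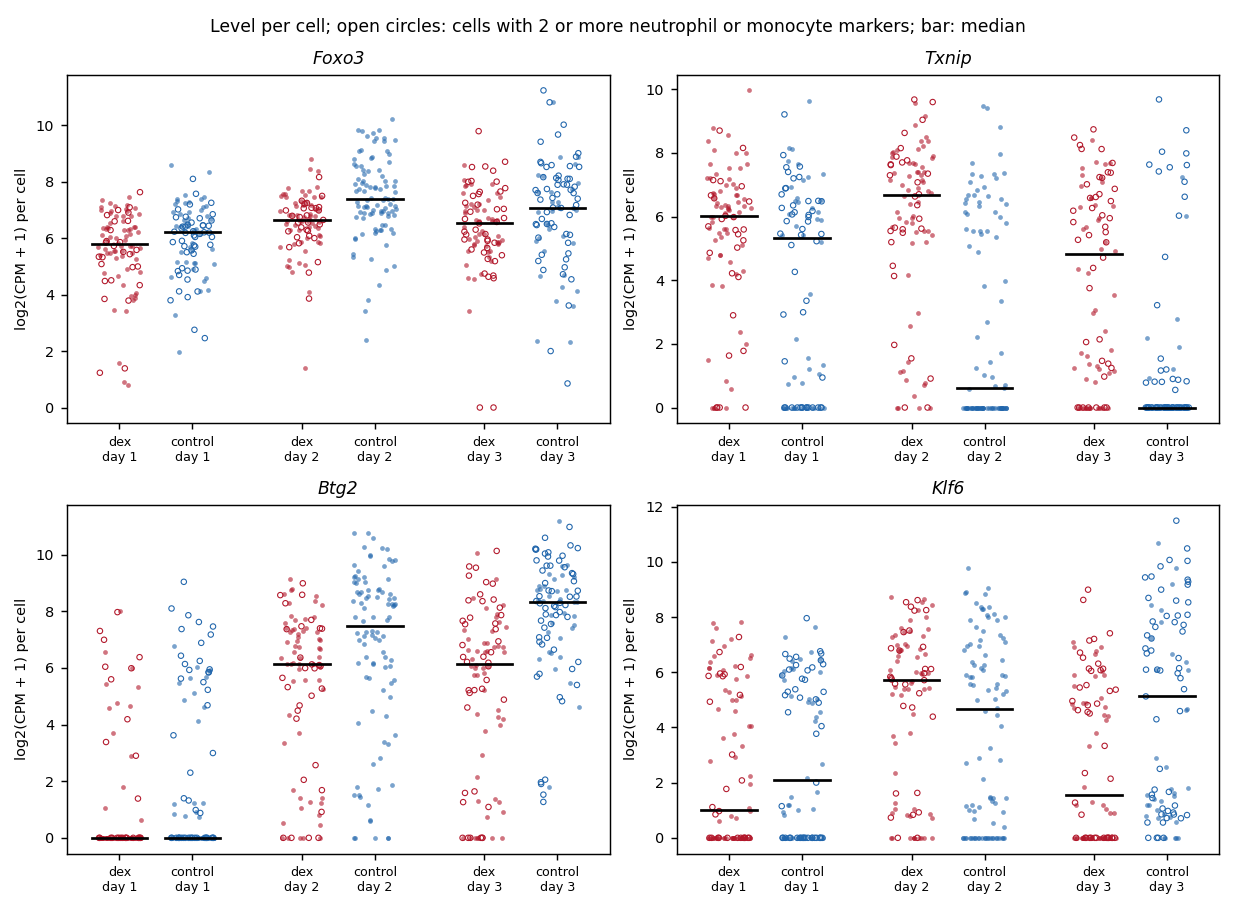
Level of Foxo3, Txnip, Btg2 and Klf6 in each kept cell as log2(CPM + 1) on the vertical axis, by day and treatment, with dexamethasone in red left of control in blue; each point is 1 cell, bars are medians and open circles are cells with counts of 2 or more neutrophil or monocyte markers. The Txnip medians in control are 0.521 CPM on day 2 and 0 CPM on day 3, while the Btg2 medians on day 3 are 69.6 CPM with dexamethasone and 317 CPM in control.

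Btg1, on the plus strand of chromosome 10 (chr10:96617006-96622809), and Tob1, on the plus strand of chromosome 11 (chr11:94211454-94215495), belong to the same protein family as Btg2, but their daily ratios had no common sign. Btg1 held 8.91, 15.2 and 6.24 scaled CPM on days 1, 2 and 3 with dexamethasone and 12.1, 13.2 and 26.8 in control. The treatments were close on day 2 and far apart on day 3, at a log2 ratio of -2.10, or -1.21 without cells that carry neutrophil or monocyte markers, which held 33.8 CPM of Btg1 on the control plate of day 3 against 12.4 CPM in the other cells there. Over the 3 days the log2 fold change of Btg1 was -0.76 (SE 0.54; adjusted p 0.675 in edgeR and 0.417 in DESeq2), and it was -0.13 without the dexamethasone plate of day 3 and -0.12 without the control plate of that day. Tob1 held 6.35, 17.3 and 13.4 scaled CPM with dexamethasone and 4.51, 10.5 and 16.03 in control, higher with dexamethasone on days 1 and 2 and lower on day 3. Its log2 fold change of 0.32 was about as large as its error (SE 0.32; adjusted p 0.787 in edgeR), and it ran from 0.11 to 0.61 when single plates were left out. More cells held a Tob1 count with dexamethasone on each day, at 47.9%, 65.2% and 54.3%, against 29.8%, 41.7% and 46.2% in control, again without a test. Among cells without neutrophil or monocyte markers the shares were 49.3%, 61.3% and 48.1%, against 28.3%, 41.7% and 54.3%, so day 3 went the other way. On day 1 the Tob1 ratio of 0.49 became 1.09, and on day 2 the ratio of 0.72 became -0.02, without the cells that carry neutrophil or monocyte markers, which on day 2 held 34.03 CPM on the dexamethasone plate against 10.7 CPM in its other cells.

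Ccng2, on the plus strand of chromosome 5 (chr5:93267257-93276231), is another gene known as a FOXO target. It held 4.21, 11.5 and 3.40 scaled CPM on days 1, 2 and 3 with dexamethasone and 5.41, 6.30 and 10.8 in control. Dexamethasone cultures were higher on day 2 alone, where 41.3% of their cells held a count against 20.8% in control. The log2 fold change over the 3 days was -0.38 (SE 0.60; adjusted p 0.882 in edgeR). Without the cells that carry neutrophil or monocyte markers it was -0.70, and the log2 ratio of day 3 was -2.995 in place of -1.66. Klf6, on the plus strand of chromosome 13 (chr13:5861482-5870394), encodes a growth suppressor of the KLF family and was the only one of the genes to differ by over 2 log2 units on day 3 besides Btg1. It held 27.4, 87.3 and 31.5 scaled CPM on days 1, 2 and 3 with dexamethasone and 30.6, 84.4 and 165 in control. The log2 ratio was -0.16 and 0.05 on days 1 and 2 and -2.39 on day 3. The ratio of day 3 was -2.29 without the cells that carry neutrophil or monocyte markers. With these unequal days the log2 fold change of Klf6 was -0.80 (SE 0.58; adjusted p 0.681 in edgeR and 0.325 in DESeq2).

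Klf2, on the plus strand of chromosome 8 (chr8:72319033-72321656), encodes a factor known in mice for its role in primitive red cells and in quiescent T cells. Its plate sums were 1, 84 and 0 counts on days 1, 2 and 3 with dexamethasone and 5, 5 and 0 counts in control. The 84 counts came from 3 cells, 1 of which gave 63.1% of them. The 0 of 94 cells with dexamethasone on day 3 allow a share of up to 3.19% by the limit of 3 counts (3.85% by the exact interval), and the 0 of 93 control cells allow up to 3.23% (3.89% by the exact interval). Klf2 was therefore at or near the limit of detection on 5 of the 6 plates, and no fold is given.

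**Figure D4:**
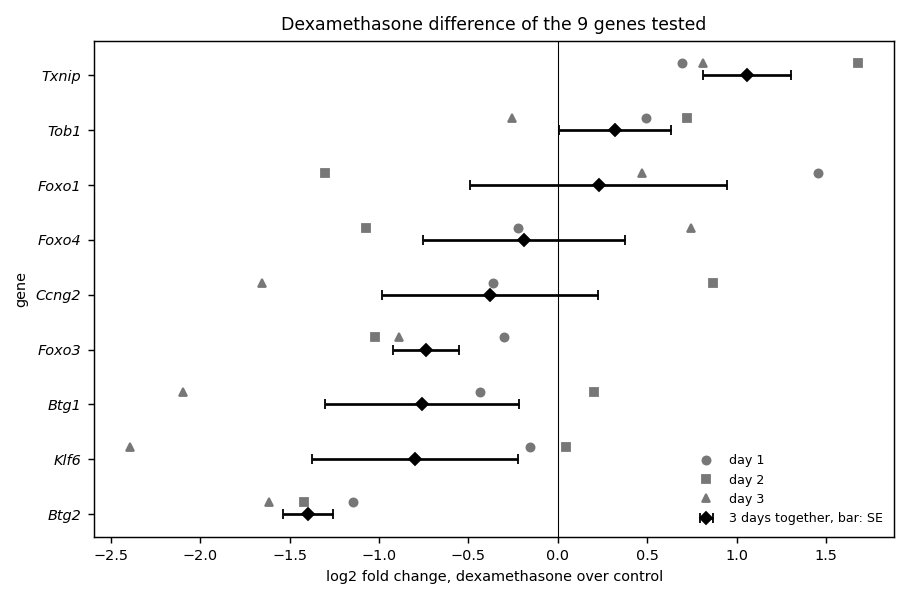
Log2 fold change of dexamethasone over control (horizontal axis) for the 9 genes tested, with a diamond and SE bar for the 3 days together and grey symbols for the ratio of each day. Btg2 at -1.39, Foxo3 at -0.74 and Txnip at 1.06 have their 3 daily ratios on 1 side of 0, and the other 6 genes do not.

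The later days were compared with day 1 over both treatments. On day 3 Btg2 was higher by 3.49 log2 units (SE 0.19), Klf6 by 1.49 (SE 0.70), Tob1 by 1.48 (SE 0.39) and Foxo3 by 1.14 (SE 0.23), while Txnip differed by -0.62 (SE 0.30), Foxo1 by -0.88 (SE 0.83) and Foxo4 by -0.87 (SE 0.68). Without the cells that carry neutrophil or monocyte markers the value was 4.19 for Btg2, 0.80 for Foxo3, 0.81 for Klf6 and -2.18 for Txnip. Without the control plate of day 3 the value was 0.15 for Klf6 and -0.26 for Foxo4, without the dexamethasone plate of day 3 it was 2.49 and -1.65, and without the control plate of day 1 it was -0.33 for Txnip. The p of Btg2 was the smallest of all 20040 genes on both day 2 and day 3. Its adjusted p for day 3 was 0.210 in edgeR, 2.25e-53 in DESeq2 and 0.00223 in edgeR among genes of at least 50 CPM. The edgeR test called 0 of the 9 on either day, as it called 0% of all genes, and at an unadjusted p under 0.05 it held 3 of the 9 on each day, beside 14.5% of all genes on day 3 and 12.2% on day 2. DESeq2 called Btg2, Foxo3 and Tob1 as higher on day 3, beside 10.3% of all genes called and 5.28% called higher. On day 2 it called those and Klf6 as higher, beside 7.73% of all genes called and 4.12% called higher. Among genes of at least 50 CPM edgeR called Btg2 and Foxo3 as higher on both days, beside 12.6% of genes called and 7.44% called higher on day 3, and 5.39% called and 3.68% called higher on day 2. For Foxo3 the adjusted p was 0.225 in edgeR over all genes, 0.0246 in edgeR among genes of at least 50 CPM and 0.000543 in DESeq2 for day 3. The median log2 fold change of the 9 was 0.97 on day 2 and 0.48 on day 3, beside 0.02 and -0.03 for all tested genes.

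Within each treatment Btg2 was 3.26 log2 units higher on day 3 than on day 1 with dexamethasone and 3.73 higher in control, most of which was present on day 2, at 2.96 and 3.23. Foxo3 was 0.86 higher on day 3 with dexamethasone and 1.45 higher in control, where day 3 stood -0.05 from day 2. Klf6 on day 3 stood 0.20 above day 1 with dexamethasone and 2.43 above it in control. Btg1 and Ccng2 also had opposite signs, at -0.51 and -0.31 with dexamethasone and 1.15 and 0.99 in control. With 1 plate at each point these courses have no replicate, and the differences between them were not tested.

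Compared per kilobase of annotated exon, the order of the genes changed with day and treatment. With dexamethasone on day 1 Txnip led with 29.9 scaled CPM per kilobase, ahead of Foxo3 at 8.40, Klf6 at 6.25 and Btg2 at 5.07. In control on day 3 Btg2 led with 149, ahead of Klf6 at 37.6, Foxo3 at 28.2 and Txnip at 11.6. With dexamethasone on day 3 Btg2 at 48.5 was followed by Txnip at 20.3 and Foxo3 at 15.2. Tob1, at 1.97 to 7.56, and Btg1, at 1.18 to 5.07, lay between these and Ccng2, Foxo1 and Foxo4, which had at most 2.11 scaled CPM per kilobase on any plate.

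Lists of genes around the members are given by their counts for dexamethasone against control, where DESeq2 called 6.28% of all tested genes, 2.5% as higher and 3.78% as lower, and the median of all was 0.07. Among 29 tested FOXO regulators 13 log2 fold changes were positive and 16 negative with a median of -0.04, and DESeq2 called 2, both lower, a share near that of all genes. These were Sgk3, a kinase that phosphorylates FOXO factors, at -1.43 (SE 0.34), and Usp7, a deubiquitinase that acts on them, at -0.67 (SE 0.15). Among 44 tested FOXO target genes 9 were positive and 35 negative with a median of -0.37, and DESeq2 called Cited2, Pik3ip1 and Sesn3 higher and Trib3, Sesn2 and Plk1 lower. Cited2, a transcriptional coregulator, had 1.18 (SE 0.28), Trib3, a pseudokinase of the stress response, had -2.48 (SE 0.64), and Sesn2, a stress-induced sestrin, had -0.95 (SE 0.27). The called FOXO targets thus stood on both sides of 0, while 35 of all 44 were negative, and Plk1 is also a cell cycle gene. Whether FOXO activity had a part in these values was not tested. Of the cell cycle list, 0 of 27 were positive and 27 negative with a median of -0.61, and DESeq2 called 17 lower. Of the late erythroid list, 2 of 20 were positive and 18 negative with a median of -2.12, and DESeq2 called 1 higher and 15 lower. The edgeR test over all genes called 0 genes of any of these lists.

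The lists around the other members were counted the same way, and 1 call among 16 or 19 genes is near the 6.28% that DESeq2 called of all genes. Of 19 tested BTG/TOB relatives and deadenylase subunits 7 were positive and 12 negative with a median of -0.14, and DESeq2 called Pabpc4, a poly(A) binding protein, lower at -0.64 (SE 0.15). Tob2, the closest relative of Tob1, had 0.40 (SE 0.25). Of 16 tested genes of the thioredoxin system around Txnip 8 were positive and 8 negative with a median of -0.02, and DESeq2 called Txnrd2, the mitochondrial thioredoxin reductase, lower at -1.07 (SE 0.36). Txn1, the thioredoxin that Txnip binds, had 0.35 (SE 0.14; adjusted p 0.319 in DESeq2). Of 13 tested KLF and Sp factors 5 were positive and 8 negative with a median of -0.28, and DESeq2 called 2 higher and 3 lower. Klf9 had 1.16 (SE 0.30), Klf3, a repressor, had -1.52 (SE 0.29), and Klf1, the erythroid factor, had -0.78 (SE 0.24). Of the 6 genes around Ccng2 1 was positive and 5 negative with a median of -0.31, with Ccnf, an F-box cyclin, called lower by DESeq2 at -0.91 (SE 0.22). Of 8 glucocorticoid-induced genes 6 were positive with a median of 1.53, and DESeq2 called 6 higher and 1, Dusp1, lower.

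Across the cells of a plate Foxo3 and Btg2 ranked with late erythroid genes, a description over 92 to 96 cells that share a plate and differ in depth. Spearman's rho of Foxo3 with the mean of 20 late erythroid genes was 0.31, 0.31 and 0.58 on days 1, 2 and 3 with dexamethasone and 0.11, 0.60 and 0.51 in control. Btg2 had -0.25, 0.25 and 0.39 with dexamethasone and 0.05, 0.59 and 0.53 in control, so its relation was seen from day 2 on. The number of genes detected per cell moved with these values on some plates. Spearman's correlation of Foxo3 with the number of genes detected in a cell was 0.17, -0.09 and -0.38 on days 1, 2 and 3 with dexamethasone and 0.03, -0.51 and -0.49 in control. That of Btg2 with that number was -0.11, -0.26 and -0.37 with dexamethasone and -0.11, -0.55 and -0.56 in control, and the part of that number in the relation was not tested. In cells thinned to 620000 counts rho of Foxo3 with late erythroid genes was 0.30, 0.325 and 0.57 with dexamethasone and 0.17, 0.51 and 0.55 in control. For Btg2 it was -0.23, 0.25 and 0.44 with dexamethasone and 0.12, 0.47 and 0.55 in control. Txnip had negative values with the same list on every plate, between -0.16 and -0.05 with dexamethasone and between -0.33 and -0.14 in control. With the mean of 27 cell cycle genes Txnip had 0.09, -0.32 and -0.28 with dexamethasone and -0.28, -0.17 and -0.12 in control. Low values on some plates were not particular to Txnip. Over the plates Foxo3 ran from -0.30 to 0.20 with that list and Btg1 from -0.33 to 0.07. Btg2 ran from -0.31 to 0.09 and Klf6 from -0.35 to 0.09. Klf6 reached 0.36 with late erythroid genes on day 3 in control and lay between -0.12 and 0.14 with dexamethasone.

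**Figure D5:**
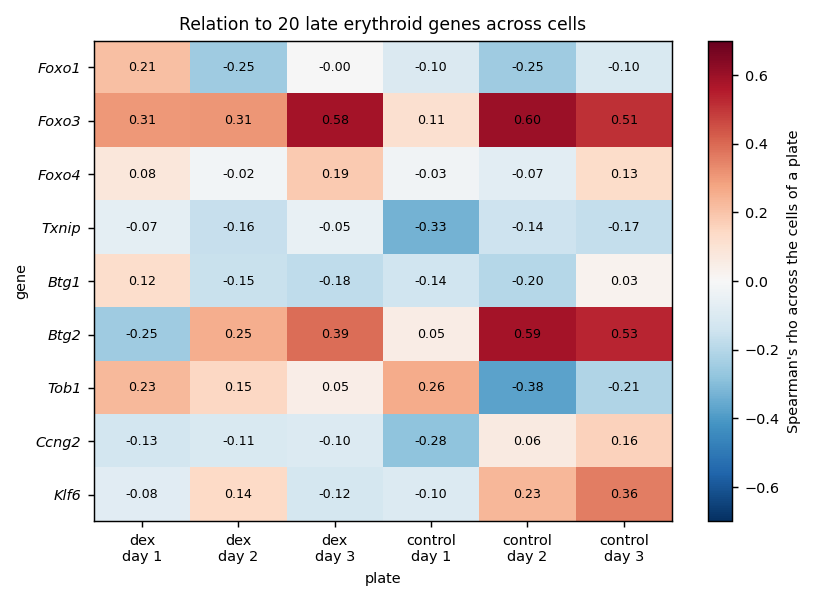
Spearman's rho between each gene and the mean log2(CPM + 1) of 20 late erythroid genes across the cells of a plate (colour, with the value printed), for 9 genes down the page and the 6 plates across it, dexamethasone left of control. Foxo3 is positive on all 6 plates, up to 0.60, Btg2 is positive on 5, and Txnip is negative on all 6.

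The genes whose levels were most like a member's were named by their mean rho over the 6 plates among 4326 genes of at least 50 CPM. For Foxo3 these were the globins Hba-a1 at 0.41 and Hbb-bs at 0.38 and Fech, the last enzyme of heme synthesis, at 0.38. For Btg2 they were the lysosomal proteases Ctsb at 0.34 and Ctsd at 0.32 and the nuclear RNA Malat1 at 0.32. For Tob1 they were Hspa8, a chaperone, at 0.26, Trpv2 at 0.23 and Pla2g12a at 0.22, and for Txnip they were Sept9 at 0.24, Atp2a3 at 0.23 and Plek at 0.23. For Klf6 they were the nuclear RNAs Neat1 at 0.23 and Malat1 at 0.22 and Wbp2 at 0.23. The highest value for Foxo1, Foxo4, Btg1 and Ccng2 was 0.15, 0.15, 0.15 and 0.17, too weak in sparse counts to name a likeness. Among themselves the members were weakly related. Foxo3 and Btg2 had the highest mean rho of any pair, 0.18 with a range of -0.12 to 0.56 over the plates, followed by Ccng2 and Klf6 at 0.16. The median cell held counts of 4, 6 and 5 of the 10 genes on days 1, 2 and 3 with dexamethasone and of 4, 5 and 5 in control.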

How the data were processed

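Single-cell RNA was counted per gene and well. The deposited values are raw counts made by the authors with STAR 2.4 and featureCounts on GRCm38, per the submitters' processing notes. The annotation release, strand setting and handling of multi-mapping reads were not given in the sources used here. No molecular identifiers are stated, so intervals cover counting error only. The header of the table has 1 empty cell more than its lines, which was dropped; 575 of 576 columns matched a well and 1 was not used. Wells with at least 50000 counts and 1500 genes and at most 20% mitochondrial counts were kept (563 cells, 12 removed, range 66140 to 3757116 counts); no doublet caller was run, as cells were sorted into wells.

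Counts were summed per plate and fitted with edgeR 4.0.16 (day and dexamethasone additive, TMM, filterByExpr, quasi-likelihood test with 2 residual degrees of freedom, Benjamini-Hochberg, threshold 0.05). The code was tested on simulated data with the same spread for every gene, which does not show how many differences it would call here. The SE is the log2 fold change divided by the square root of F. DESeq2 1.42.0, a 50 CPM minimum, other scalings, thinning and leaving out plates or cells were alternatives. Daily ratios use a prior count of 2 and have no test. Intervals are exact Poisson or Clopper-Pearson at 95%, and a count of 0 allows 3. Positions are from GENCODE vM21. Members, gene lists and marker lists were chosen with earlier results of these data known. Besides the members, the rule named from each list the 2 highest and 2 lowest genes for dexamethasone with at least 10 CPM and 1 direction on 3 days, of which those a result turns on are printed, and for each member the 3 genes of highest mean rho.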

Additional observations from a re-analysis of the deposited data

Results flagged for a closer look

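For 6 of the 9 genes the daily ratio of dexamethasone to control had opposite signs on different days, with counting intervals that exclude 0, and whether the days differ was not tested, as each ratio rests on 1 plate a treatment. Of the 9 genes 3 had 1 direction on all days, near the 35.2% of all tested genes, so reversals were common among all genes. The counting intervals cover counting error only, not the scatter between cells or plates, and were not computed for all genes. For Foxo1 the log2 ratio was 1.46, -1.30 and 0.47 on days 1, 2 and 3, a span of 2.76, in a gene with a count in at most 23.4% of cells. Its ratio of day 2 was -0.32 with every cell weighing the same and -0.56 after thinning. Without the top cell of each plate the ratios of days 1, 2 and 3 were 1.71, -0.76 and 1.93. For Ccng2 it was -0.36, 0.87 and -1.66, a span of 2.52, and -0.48, 1.27 and -1.85 without the top cell of each plate. For Klf6 it was -0.16, 0.05 (counting interval 0.006 to 0.088) and -2.39, a span of 2.44 that lies in day 3. For Btg1 it was -0.44, 0.20 and -2.10, a span of 2.30. For Foxo4 the ratio was -1.07 on day 2 and 0.74 on day 3, a span of 1.82. Its ratio of day 3 was 0.26 with every cell weighing the same and 0.24 after thinning. It was 1.08 without the top cell of each plate and -1.14 without cells that carry neutrophil or monocyte markers. For Tob1 the ratio was 0.72 on day 2 and -0.26 on day 3, a span of 0.98.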

How the results depend on the processing

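Of the log2 fold changes recomputed under the alternatives, 336 kept their direction and side of the threshold, 15 passed it and 21 changed sign; the cause was not tested. No paired analysis was possible because the numbers in the labels name wells, and wells were summed per plate with 1 plate a day and treatment. Over all genes the counts of calls for dexamethasone, day 3 and day 2 were 0, 0 and 0 in edgeR, against 1258, 2061 and 1550 in DESeq2 and 38, 545 and 233 among genes of at least 50 CPM, where fewer genes are tested. Of the members DESeq2 called 3, 3 and 4 and the 50 CPM minimum 1, 2 and 2. Leaving out any plate gave 0 calls in each comparison, over all genes and among the members. The full edgeR fit already called 0 genes, and leaving out a plate leaves fewer residual degrees of freedom. These 0 calls therefore show little about how far the results rest on single plates. Without single plates the dexamethasone log2 fold change ran from -1.54 to -1.29 for Btg2, 0.75 to 1.25 for Txnip and -0.98 to -0.59 for Foxo3, from -0.44 to 0.97 for Foxo1, -0.67 to 0.26 for Foxo4, -1.28 to -0.06 for Klf6, which was nearest 0 without a plate of day 3, and -1.01 to 0.25 for Ccng2. For day 3 it ran from -1.64 to 0.24 for Foxo1, -0.68 to 1.31 for Btg1 and -0.65 to 1.28 for Ccng2, and for day 2 from -1.64 to 0.68 for Foxo1, -0.38 to 1.00 for Foxo4, -0.32 to 0.57 for Txnip, -0.33 to 1.11 for Btg1 and -0.13 to 1.72 for Ccng2. Without cells that carry neutrophil or monocyte markers the sign also changed for Foxo1 with dexamethasone (-0.40) and on day 3 (0.036), Btg1 on day 3 (-0.23), Foxo4 on day 2 (-0.13) and Txnip on day 2 (-0.11), and in the daily ratios of Foxo1 (-1.17) and Foxo4 (-1.14) on day 3, Tob1 on days 2 (-0.022) and 3 (0.012) and Klf6 on day 2 (-0.061). With every cell weighing the same the Klf6 ratio of day 2 was -0.14. Of the other daily ratios 63 moved by more than counting error and 39 did not. Thinning moved 4 of 60 shares of cells beyond their intervals, among them Foxo1 in control on day 2 at 6.41% and Klf6 in control on day 3 at 79.8%. At this depth Klf2 was too low to test.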
